A study of Mus musculus with 4 samples.

Results

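The Hox cluster genes were described here in the RIF1 chromatin immunoprecipitation sequencing (ChIP-seq) list of activated mouse B cells. Members were the protein-coding genes of the GENCODE M1 annotation of mouse build mm9 (NCBIM37) whose symbol is Hoxa, Hoxb, Hoxc or Hoxd followed by a number. This rule gave 39 genes of 22225 coding gene symbols, namely 11 Hoxa, 10 Hoxb, 9 Hoxc and 9 Hoxd genes. The annotation holds 40 records for them, because Hoxa3 has 2, which were counted as 1 gene.

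Primary B cells were taken from spleens of mice on a C57BL/6 background, activated with LPS (5 µg/ml) and IL-4 (5 ng/ml) and harvested after 72 h. In Rif1FH/FH cells (2 samples) both alleles of the endogenous Rif1 gene carry an N-terminal FLAG-HA tag, and untagged Rif1WT/WT cells (2 samples) were the negative control for the anti-HA antibody. Ages and the number of animals per sample are not given in the sources used here, and mice of both sexes were used. The series holds no expression values, so neither the B cell identity nor the transcription of any Hox gene could be checked. The list analysed holds 16332 intervals as positions, kept by the authors where both Rif1FH replicates had a call. It has no read depth, height, score or value per sample. No error, confidence interval or test over samples can thus be given, and all shares below are descriptions. Intervals fell into 16043 narrow ones (286 to 14827 bp), called peaks here, and 289 wide ones (90000 bp or more). The wide ones were taken to be the RIF1-associated domains (RADs) of the study, which reports the same numbers of peaks and RADs for primary B cells.

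Hox genes encode homeodomain transcription factors that pattern the body axis. They lie in 4 clusters that arose by duplication, so that genes with the same number (paralogue groups 1 to 13) are copies of a common ancestor. Within a cluster all genes are transcribed in the same direction, from the group 13 end towards the group 1 end, and groups nearer 1 act more anteriorly and earlier. Several Hoxa and Hoxb genes act in blood stem and progenitor cells, and Polycomb complexes keep the clusters silent in many differentiated cells. RIF1 acts in DNA repair during antibody class switching and in the timing of DNA replication.

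RIF1 peaks covered a part of each Hox cluster, and RADs covered none. A peak lay within 1 kb of the 5′ end of 9 of 39 Hox genes (23.1%), against 31.9% of all coding genes. The authors defined peaks as those outside RADs, and 0 of the 16043 peaks in the list overlapped one, so the share was also taken over coding genes outside RADs, where it was 41.0%. Both backgrounds lie above the Hox share at this window. At 5 kb, 16 of 39 Hox genes (41.0%) had a peak, above the 34.9% of all coding genes. At this window the same peak can count for several neighbouring Hox genes, as happened for Hoxd8 and Hoxd9. The 39 genes are thus not independent cases there. The share outside RADs, 41.0% at 1 kb, was not taken at 5 kb and cannot be lower there. Among the 9 were Hoxa3, Hoxa4, Hoxa6, Hoxa7, Hoxb4, Hoxb5, Hoxc10 and Hoxd1. With the 5′ end of any transcript in place of that of the gene, Hoxa9 was added and 10 genes (25.6%) had a peak, beside 34.0% of all coding genes. Over the gene itself a peak was listed in 12 Hox genes (30.8%), against a background of 35.9%. A RAD overlapped 0 of 39 Hox genes, beside 22.6% of all coding genes. RADs had a median width of 576000 bp, while the longest Hox cluster, Hoxb, spans 174 kb. A single RAD could thus take in a whole cluster, so the 39 genes are not 39 independent cases. The count of 0 is therefore to be read per cluster, and its distance from 22.6% carries little weight.

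A total of 17 peaks lay inside the clusters, and they were unevenly divided. The Hoxa cluster (chromosome 6, minus strand) held 7, the Hoxb cluster (chr11:96055630-96229570, plus strand) 5, the Hoxc cluster (chr15:102751534-102867274, plus strand) 1 and the Hoxd cluster (chr2:74506367-74603200, plus strand) 4. Of these, 8 met the 1 kb window of a Hox 5′ end (47.1%), 5 lay in a Hox gene away from that window (29.4%) and 4 overlapped no Hox gene (23.5%). By their midpoints, 7 peaks were centred in an exon of a Hox gene, 5 in an intron and 5 in no Hox gene. Of the 8 peaks at 5′ ends, 2 were centred upstream of the nearest Hox 5′ end, by at most 541 bp, and 6 downstream of it, by at most 2188 bp.

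**Figure D1:**
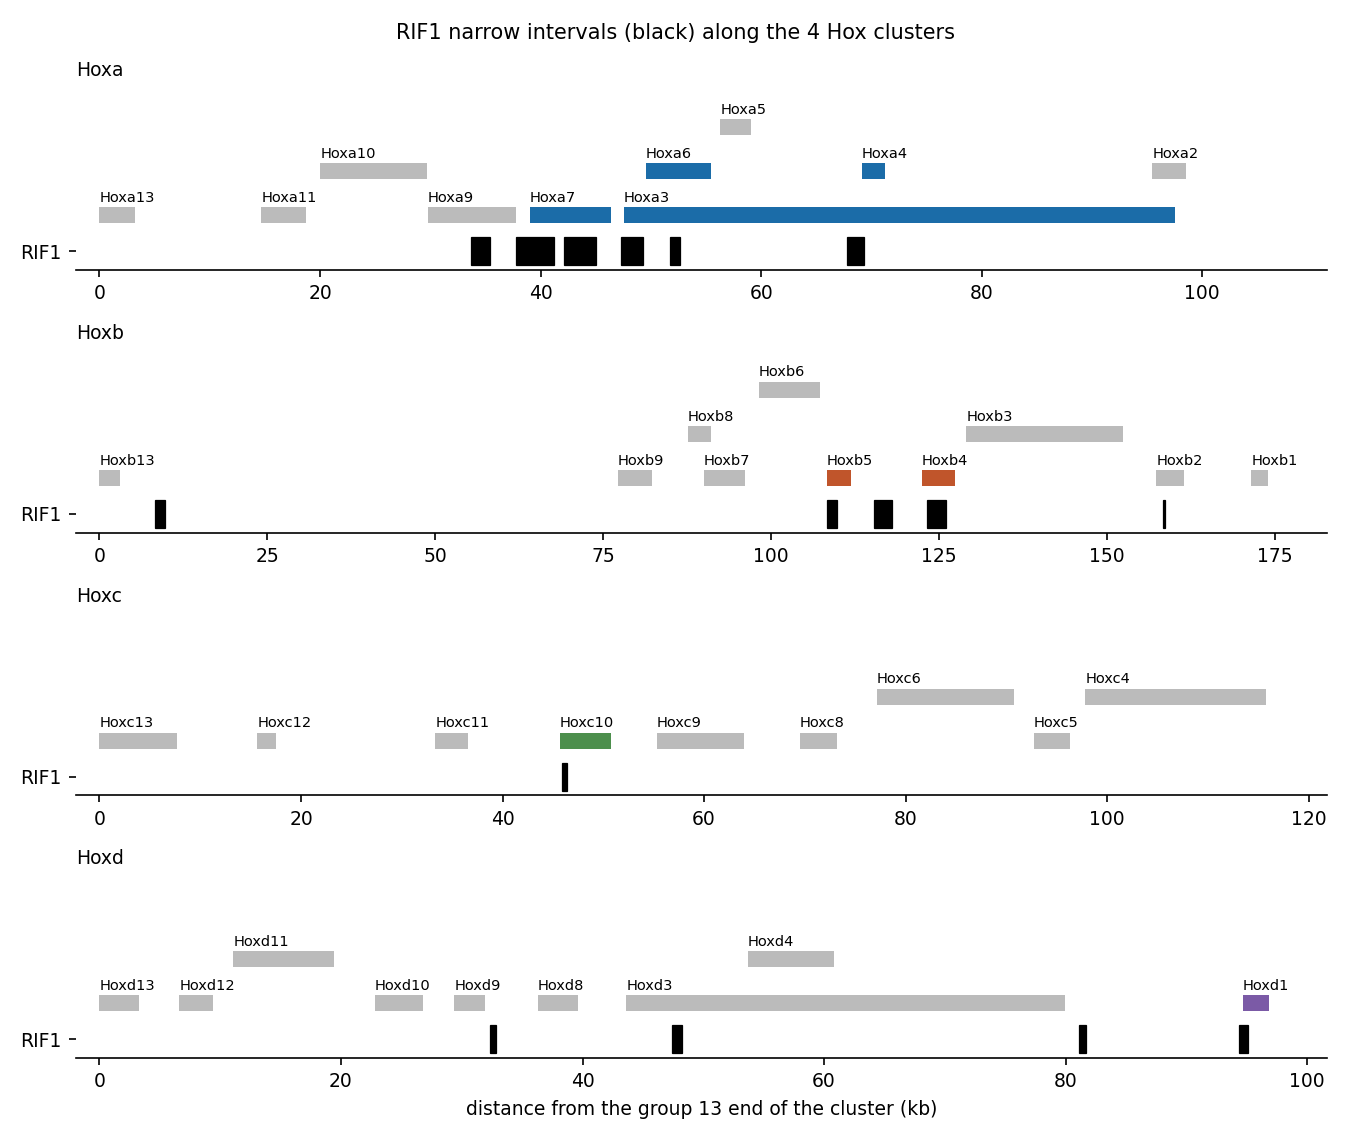
RIF1 peaks (black blocks, to scale) and Hox genes (bars) along each cluster, in kb from the group 13 end, with all genes transcribed from left to right. Coloured genes have a peak within 1 kb of the 5′ end and grey genes do not; genes and peaks not reported here are left out, the Hoxa peaks drawn lie between Hoxa9 and Hoxa4, and the single Hoxc peak lies at the start of Hoxc10.

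Sequences at the middle of 3 peaks are shown because they differ in the kind of place that was occupied. They are the peaks centred nearest to a Hox 5′ end in the Hoxc and Hoxd clusters, and the peak between Hoxb5 and Hoxb4 that met no annotated gene. Each gives 300 bases of the plus strand of mm9, 5′ to 3′, with CpG dinucleotides, the pair of bases at which mammalian DNA is methylated, in capitals.
Between Hoxb5 and Hoxb4, chr11:96172085-96172384: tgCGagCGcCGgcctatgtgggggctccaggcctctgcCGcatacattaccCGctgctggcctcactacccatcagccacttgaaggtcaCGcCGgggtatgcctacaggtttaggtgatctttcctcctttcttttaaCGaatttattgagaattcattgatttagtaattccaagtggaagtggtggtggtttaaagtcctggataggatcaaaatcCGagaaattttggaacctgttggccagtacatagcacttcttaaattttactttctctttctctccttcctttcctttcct
Hoxc10 exon, chr15:102797568-102797867: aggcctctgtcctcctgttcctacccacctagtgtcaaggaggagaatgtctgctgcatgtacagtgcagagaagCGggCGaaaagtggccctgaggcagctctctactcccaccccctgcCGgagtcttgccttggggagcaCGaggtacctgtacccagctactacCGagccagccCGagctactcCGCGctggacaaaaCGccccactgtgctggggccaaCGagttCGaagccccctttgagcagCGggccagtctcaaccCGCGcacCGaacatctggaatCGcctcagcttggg
Hoxd1 5′ end, from upstream into the gene, chr2:74600970-74601269: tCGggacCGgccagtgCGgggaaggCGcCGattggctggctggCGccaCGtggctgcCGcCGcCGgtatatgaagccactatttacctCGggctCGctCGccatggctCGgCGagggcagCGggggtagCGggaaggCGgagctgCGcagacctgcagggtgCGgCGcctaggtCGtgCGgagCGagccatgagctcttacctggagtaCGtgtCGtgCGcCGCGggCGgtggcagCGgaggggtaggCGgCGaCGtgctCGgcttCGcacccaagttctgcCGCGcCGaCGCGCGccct
The Hoxd1 stretch holds 42 CpG dinucleotides and the stretch between Hoxb5 and Hoxb4 holds 9, the most and the fewest of the 17 peaks. The Hoxc10 stretch holds 16.

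In the Hoxa cluster 6 of the 7 peaks lay in a run from Hoxa9 to Hoxa4. The peak at Hoxa4 spanned 1547 bp (chr6:52141520-52143066), included the annotated 5′ end and was centred at -541 bp. A peak of 1977 bp (chr6:52161599-52163575) included the 5′ end of Hoxa3, a gene needed for thymus and parathyroid development, and lay 0.244 kb from the 5′ end of Hoxa6. This 1 peak therefore supplied the call for both Hoxa3 and Hoxa6.

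The widest peaks of all 4 clusters were those at Hoxa7. One of 3426 bp (chr6:52169652-52173077) included the Hoxa7 5′ end, and another of 2951 bp (chr6:52165824-52168774) was centred in a Hoxa7 exon. Only 4.46% and 7.52% of all peaks in the list are wider. A 923 bp peak (chr6:52158250-52159172) was centred in an exon of Hoxa6, and a 1642 bp peak (chr6:52175500-52177141) in an exon of Hoxa9, a regulator of blood progenitors. The annotated 5′ end of Hoxa9 lay 3.95 kb from this peak, but an internal transcript of Hoxa9 starts within 1 kb of it. The long gene model of Hoxa3 and the noncoding gene 2700086A05Rik on the opposite strand both overlap the peaks at Hoxa4, Hoxa6 and the Hoxa3 5′ end, so positions alone do not assign those peaks to 1 gene.

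Genes of the Hoxa cluster without a peak over the gene were Hoxa2, Hoxa5, Hoxa10, Hoxa11 and Hoxa13. Their 5′ ends lay between 3.66 kb (Hoxa5, a lung development gene) and 29.5 kb (Hoxa13, a digit and genital tract gene) from the nearest peak. The last 33.7 kb of the cluster on the group 13 side held no peak. Over the whole Hoxa gene set, 5 of 11 genes (45.5%) had a peak at the 5′ end and 6 of 11 (54.5%) had one over the gene.

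In the Hoxb cluster peaks lay at Hoxb5, at Hoxb4, between them and farther away in both directions. The peak at Hoxb5, a gene used as a marker of long-term blood stem cells, spanned 1372 bp (chr11:96163969-96165340), began 0.0600 kb inside the gene and was centred in an exon. The peak at Hoxb4, which expands blood stem cells when overexpressed, spanned 2858 bp (chr11:96178758-96181615), began 0.760 kb from the 5′ end and was centred 2188 bp downstream in an exon. Between these genes a peak of 2637 bp (chr11:96170916-96173552) overlapped no annotated gene. The other Hoxb peaks were a 1496 bp one (chr11:96063929-96065424) at the 5′ end of the noncoding gene Gm11538, beyond Hoxb13, and a 321 bp one (chr11:96213970-96214290) in an intron of the hindbrain gene Hoxb2. The Hoxb2 peak is among the narrowest in the list, 99.9% of all peaks being wider, and it began 1.02 kb from the 5′ end, just outside the 1 kb window.

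Other Hoxb genes had no peak at the 5′ end. A stretch of 98.5 kb between the Gm11538 and Hoxb5 peaks held none, and Hoxb6, Hoxb7, Hoxb8 and Hoxb9 lie in it. Among the Hoxb genes without a call, the nearest 5′ end to a peak was that of Hoxb2 and the farthest that of Hoxb9, at 31.2 kb. The share at 5′ ends was 2 of 10 Hoxb genes (20.0%), and over the gene it was 3 of 10 (30.0%).

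In the Hoxc cluster RIF1 was listed at 1 place only. This peak of 502 bp (chr15:102797467-102797968) began 0.240 kb inside Hoxc10, a posterior gene active in hindlimb-level motor neurons, and was centred in its exon. It also met the 5′ window of the noncoding transcript Gm20398, and 96.2% of all peaks are wider. The remaining Hoxc genes had 5′ ends between 8.90 kb (Hoxc9) and 51.4 kb (Hoxc4) from it. Hoxc4 was thus the farthest of all 39 genes from a peak, and 69.3 kb at the group 4 end of the cluster held none.

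In the Hoxd cluster all 4 peaks were short, between 537 and 764 bp. The peak at Hoxd1, a gene of pain-sensing neurons, spanned 720 bp (chr2:74600760-74601479), included the 5′ end and was centred 82 bp downstream of it, the closest of all 17. It also met the 5′ window of 6720416L17Rik, a noncoding gene of the opposite strand, which another peak of 629 bp (chr2:74587444-74588072) overlapped in an exon. A 764 bp peak (chr2:74553801-74554564) lay in an intron of Hoxd3, a gene of neck vertebrae, 3.81 kb from the Hoxd3 5′ end, and at the 5′ end of the opposite-strand noncoding gene 1700109F18Rik. The remaining 537 bp peak (chr2:74538703-74539239) followed the end of Hoxd9 and overlapped no gene. Hoxd genes without a peak over the gene had 5′ ends between 2.97 kb (Hoxd9) and 17.6 kb (Hoxd11) from a peak, and the last 32.3 kb on the group 13 side held none.

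Peaks in the Hoxc and Hoxd clusters were thus narrower than most in the list, whose median width was 1365 bp. All 4 Hoxd peaks and the Hoxc peak were under this median, against 1 of 7 in Hoxa and 1 of 5 in Hoxb. Over the 17 Hox peaks the median width was 1496 bp, with a range of 321 to 3426 bp. Without heights or scores the strength of the narrow peaks cannot be given. The study's methods merged narrower and broader peak calls, so a listed width can also depend on that merging.

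**Figure D2:**
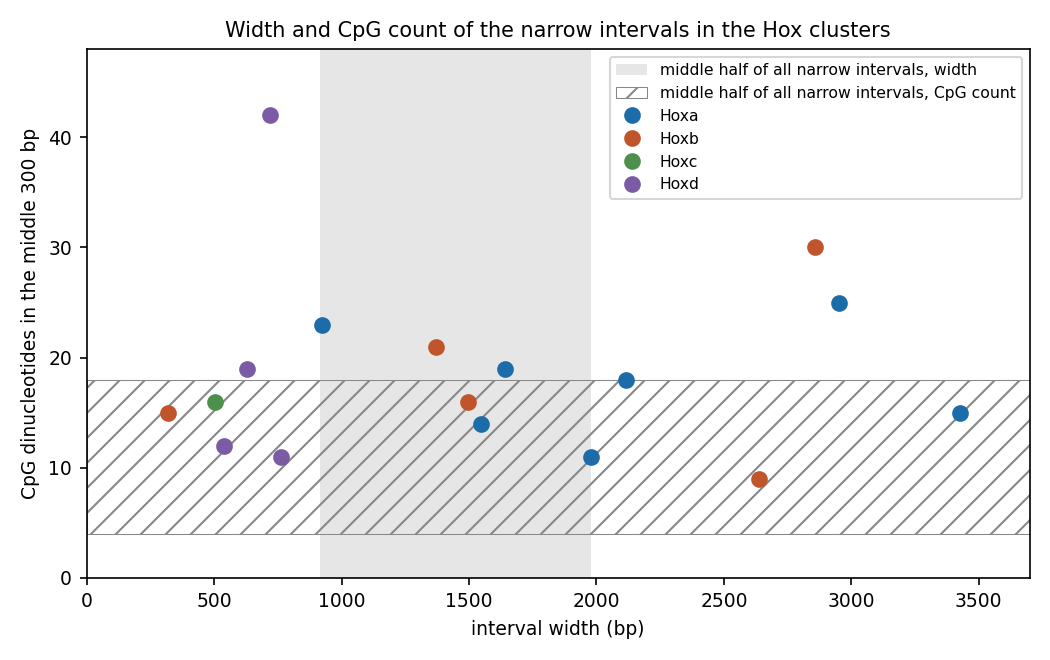
Width in bp and number of CpG dinucleotides in the middle 300 bp of each of the 17 peaks in the Hox clusters, coloured by cluster. The grey band (916 to 1979 bp) and the hatched band (4 to 18 CpG) run from the lower to the upper quartile of all 16043 peaks; the Hoxd and Hoxc points lie left of the grey band and no point lies below the hatched band.

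By paralogue group, peaks at 5′ ends were listed at 8 anterior or central genes and 1 posterior gene. Anterior genes (groups 1 to 3, hindbrain and neck) had one in 3 of 8 cases (37.5%), central genes (groups 4 to 8) in 5 of 15 (33.3%) and posterior genes (groups 9 to 13, trunk end and limbs) in 1 of 16 (6.25%), which was Hoxc10, beside 31.9% of all coding genes. The anterior and central shares lie near this background and below the 41.0% of coding genes outside RADs. The annotated 5′ end of Hoxa3 lies between Hoxa6 and Hoxa7 in the central stretch of its cluster, and without that call the anterior count was 2 of 8 (25.0%), below the central one. Over the gene the numbers were 5 of 8 (62.5%), 5 of 15 (33.3%) and 2 of 16 (12.5%), beside 35.9% of all coding genes. The anterior genes Hoxa3 (49981 bp) and Hoxd3 (36346 bp) have long annotated models that reach over central genes. All 3 peaks over Hoxa3 lie at Hoxa4, at Hoxa6 or between Hoxa6 and Hoxa7. Neighbouring genes share peaks, so the counts by band are not independent.

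Of the 13 paralogue groups, 7 had at least 1 gene with a peak at the 5′ end and 6 had none, which were groups 2, 8, 9, 11, 12 and 13. In group 4 both Hoxa4 and Hoxb4 had a peak there. In 5 groups a single copy had the peak while its paralogues did not, as with Hoxb5, whose copies Hoxa5 and Hoxc5 lay 3.66 kb and 46.3 kb from a peak.

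**Figure D3:**
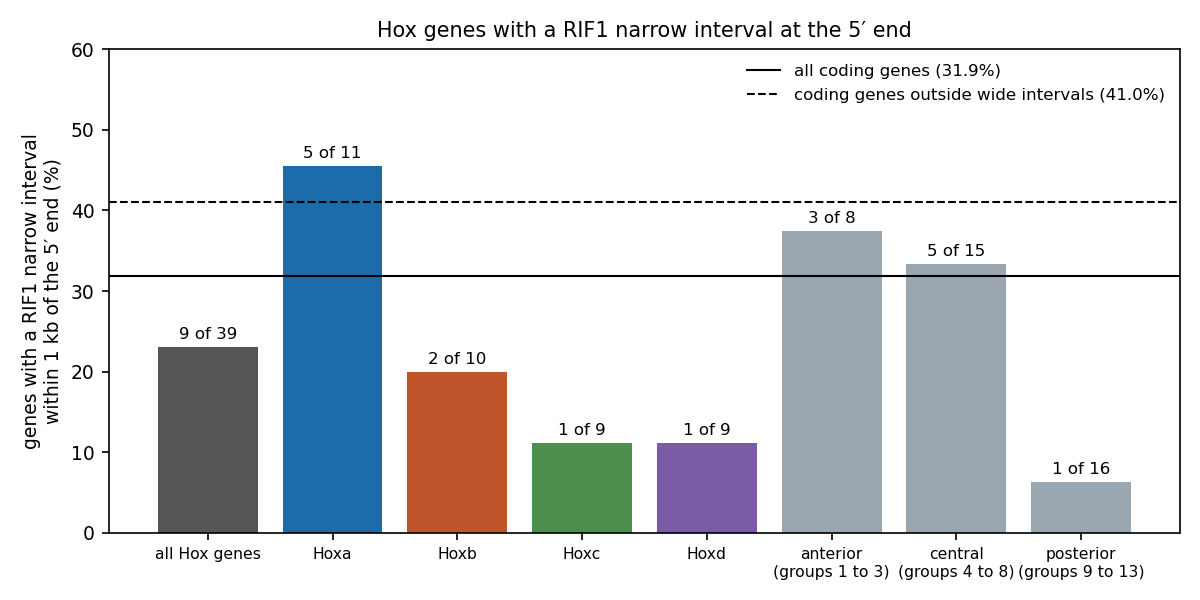
Percentage of Hox genes with a RIF1 peak within 1 kb of the 5′ end, for all 39 genes, by cluster and by paralogue band, with the number of genes above each bar. Lines mark all coding genes (31.9%) and coding genes outside RADs (41.0%); the Hoxa bar (45.5%) is the only one above both, and the posterior bar (6.25%) is the lowest.

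Distance to the nearest peak was shortest in the Hoxa and longest in the Hoxc genes. The median distance of the 5′ end was 3.66 kb for Hoxa, 5.47 kb for Hoxd, 9.24 kb for Hoxb and 30.3 kb for Hoxc genes. By band it was 2.02 kb for anterior, 5.47 kb for central and 12.9 kb for posterior genes. Ranges overlapped widely, reaching 12.8 kb among anterior genes (Hoxb1) and down to 0.240 kb among posterior genes (Hoxc10). Over all 39 genes the median was 8.30 kb and 16 (41.0%) lay within 5 kb of a peak. Among 22208 coding genes on chromosomes with a peak the median was 41.1 kb, and 34.9% lay within 5 kb. The list-wide median and share include genes inside RADs, where the list holds no peaks by definition. Hox genes lie close together and often have the same nearest peak, as all Hoxc genes do. The 39 distances are thus not independent, and the list-wide values were not matched for gene spacing.

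**Figure D4:**
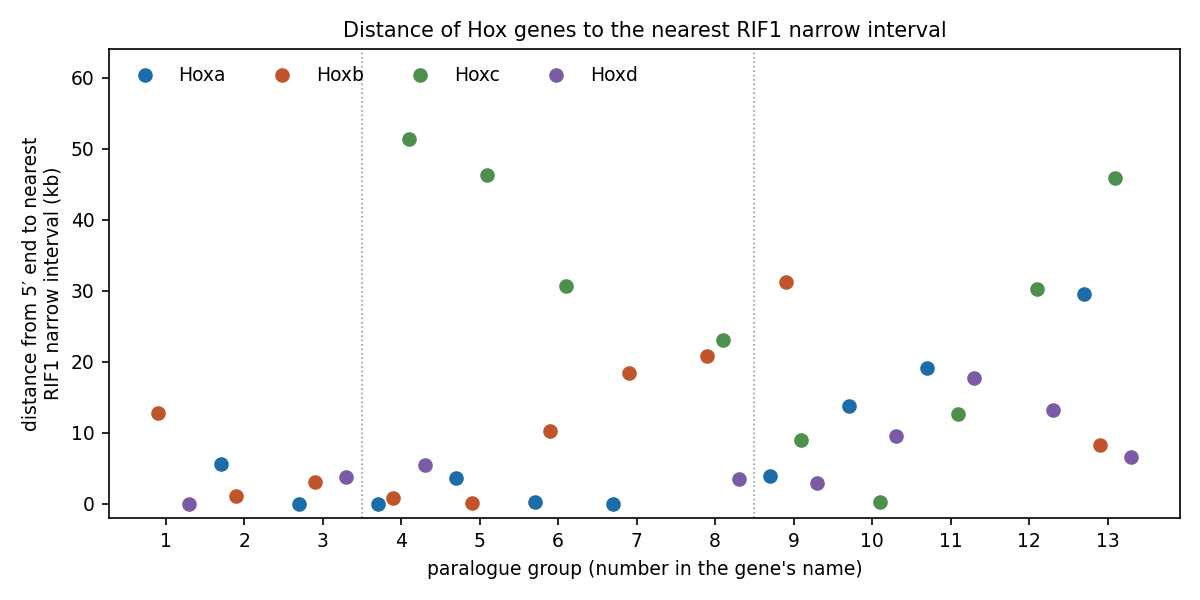
Distance in kb from the 5′ end of Hox genes to the nearest RIF1 peak, by paralogue group, coloured by cluster; 0 means that the 5′ end lies inside a peak, and dotted lines divide anterior, central and posterior groups. Genes not reported here are left out. Points at 0 include Hoxa3, Hoxa4, Hoxa7 and Hoxd1, and the highest point is Hoxc4 at 51.4 kb.

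Density of peaks was high over the 4 clusters together, at 17 in 492 kb or 34.6 per Mb, against 6.27 per Mb over the genome without gaps in sequence. Peaks covered 5.37% of the cluster bases, against 0.988% of the genome. In the Hoxa cluster (106 kb) the density was 66.3 per Mb and the covered share 13.8%. Hoxd (96.8 kb) followed with 41.3 per Mb and 2.74%, Hoxb (174 kb) with 28.7 per Mb and 4.99%, and Hoxc (116 kb) with 8.64 per Mb and 0.434%. Of autosomal windows of the same length laid end to end, 0.506% held at least as many peaks as Hoxa, 4.00% as Hoxd, 7.05% as Hoxb and 34.0% as Hoxc. These windows include gene-poor sequence and RADs, and they were not chosen to match the clusters in gene number.

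Base composition of the Hox peaks lay above the middle of the list. In their middle 300 bp the median GC content was 59.3% (46.3 to 71.7%), against 51.7% for all peaks (quartiles 46.0 and 60.3%), and the median number of CpG dinucleotides was 16 against 7. Peaks in the 500 kb beside the clusters had medians of 53.2% GC and 9.5 CpG. Hox 5′ ends with a peak had slightly higher medians than those without. In the 300 bp around the 5′ end the 9 genes with a peak had a median of 56.3% GC and 18 CpG, the 30 without had 55.5% and 14, and all coding 5′ ends had 58.0% and 15.

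Short motifs were searched on both strands of the same 300 bp stretches, as letters only. GGGCGG, the core of the GC box bound by SP1, was in 8 of 17 Hox peaks (47.1%) and 26.0% of all peaks. At 5′ ends the order was the other way, with GGGCGG at 14 of 39 Hox 5′ ends (35.9%) and 45.7% of all coding 5′ ends. A run of 4 blocks of at least 3 guanines with loops of 1 to 7 bases, a pattern that can fold as a G-quadruplex and may share letters with GGGCGG, was in 4 of 17 (23.5%) and 11.9% of all peaks. TATAAA, the TATA box, was in 2 of 17 (11.8%) and 10.1%. TGATNNAT, a motif of HOX and PBX pairs, and GCCATNTT, a motif of YY1, were in 0 of 17, beside 7.23% and 5.40% of all peaks. At the 39 Hox 5′ ends TGATNNAT was in 6 (15.4%) and the guanine pattern in 16 (41.0%), against 6.07% and 21.5% of all coding 5′ ends, and of the 9 genes with a peak 2 (22.2%) held the guanine pattern, against 14 of 30 (46.7%) without.

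The clusters also hold microRNA genes, which repress Hox transcripts among other targets. Mature sequences are shown because the members of each family share the seed (bases 2 to 8, in capitals) while their distances to RIF1 peaks differ. They are from RefSeq (GRCm38.p6).
miR-10a-5p: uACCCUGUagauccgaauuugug
miR-10b-5p: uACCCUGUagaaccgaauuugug
miR-196a-5p: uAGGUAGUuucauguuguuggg
miR-196b-5p: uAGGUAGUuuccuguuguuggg
Mir10a, inside the annotated Hoxb4 gene, was the only one of 6 with a peak within 1 kb, which was the Hoxb4 peak at 0.279 kb. Mir10b, its copy inside the Hoxd4 gene, lay 9.56 kb from a peak. Of the miR-196 genes, Mir196b (Hoxa) lay 3.02 kb, Mir196a-2 (Hoxc) 5.80 kb and Mir196a-1 (Hoxb) 37.5 kb from one, and Mir615 in Hoxc5 lay 47.4 kb away. Counting all 25 noncoding or pseudogene symbols in the clusters, 6 had a peak at the 5′ end, among them Gm11538, Mir10a, Gm20398, 1700109F18Rik and 6720416L17Rik. Over all noncoding and pseudogene symbols of the annotation the share was 8.62%, a background not limited to gene-dense sequence, and several of the 6 share their peak with a Hox gene. None of the other 3 coding genes in the clusters had one.

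RADs kept a distance from all 4 clusters. The nearest lay 350 kb from Hoxb (chr11:96580001-97940000), 1532 kb from Hoxc, 2865 kb from Hoxa and 9937 kb from Hoxd. Hoxb was the only cluster with a RAD inside its 500 kb flanks, where it took 150 kb of the group 1 side and overlapped 5 coding genes.

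Peaks beside the clusters did not follow the order of the clusters themselves. In the 500 kb on each side there were 46 peaks in all (11.5 per Mb), with 17 beside Hoxc, 15 beside Hoxb, 8 beside Hoxa and 6 beside Hoxd. Hoxc, with 1 peak inside, had the most peaks around it at this flank length, and Hoxd, with 4 inside, had the fewest. This order depended on the setting. Without the bases of RADs the Hoxb flanks held 17.6 per Mb and the Hoxc flanks 17.0 per Mb, and with 200 kb flanks Hoxa was lowest, at 7.5 per Mb against 10.0 per Mb for Hoxd. With 1 Mb flanks the Hoxa value was 13.5 per Mb in place of 8 per Mb. Autosomal 1 Mb windows held a median of 4 peaks (quartiles 1 and 11), and 10.8% of them held at least as many as the Hoxc flanks, 14.1% as Hoxb, 35.8% as Hoxa and 44.0% as Hoxd. The sides were unequal around Hoxb, with 12 peaks beyond Hoxb13 and 3 beyond Hoxb1, and around Hoxc, with 6 beyond Hoxc13 and 11 beyond Hoxc4. Hoxa had 6 beyond Hoxa13 and 2 on the group 1 side, and Hoxd had 3 on each side.

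**Figure D5:**
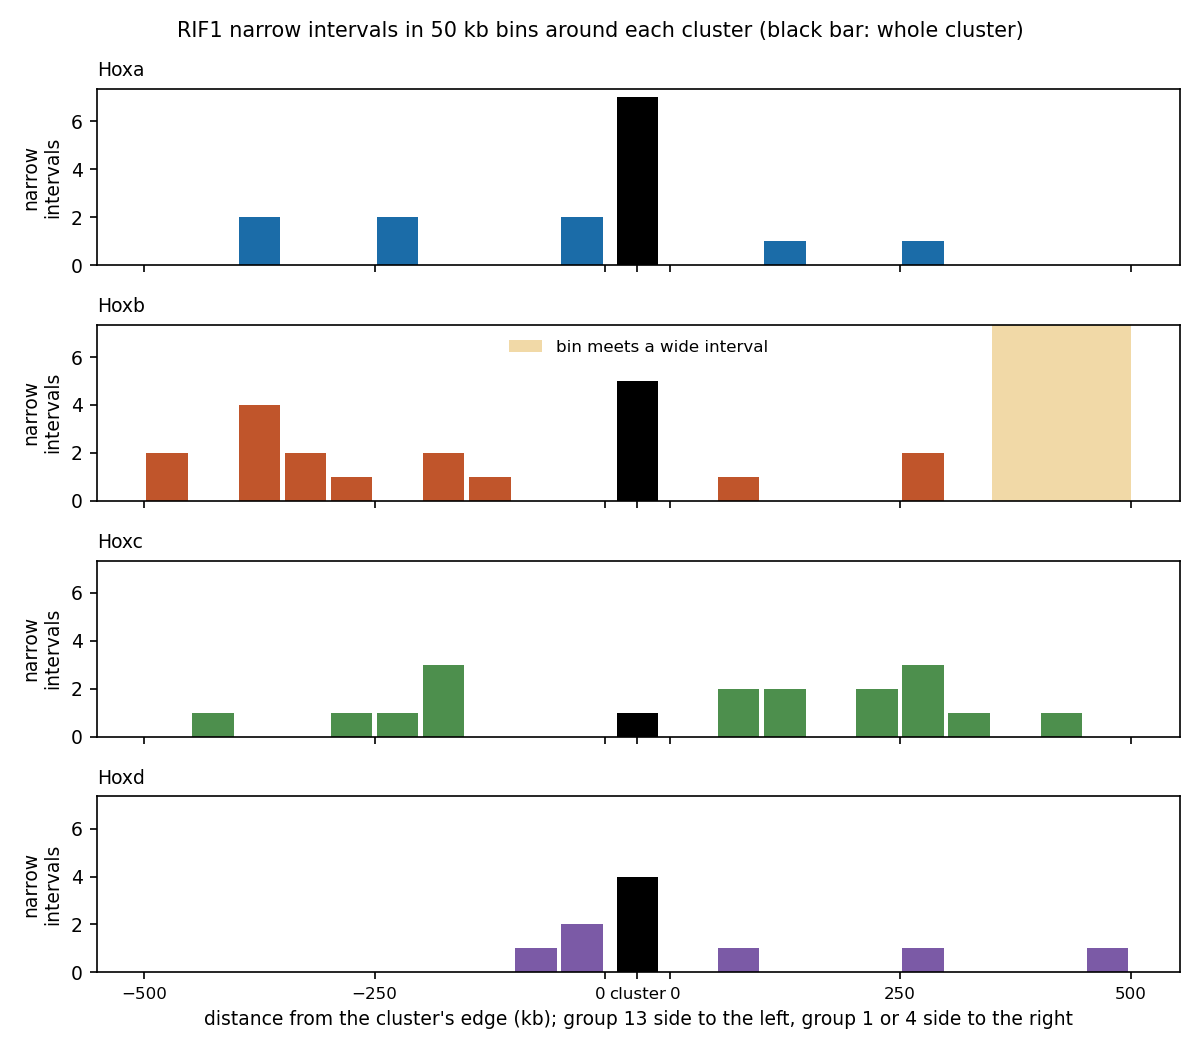
Number of RIF1 peaks in 50 kb bins on both sides of each cluster, against distance in kb from the cluster's edge, with the group 13 side to the left; the black bar is the count over the whole cluster, whose length differs between clusters. The Hoxa cluster holds 7 peaks with 8 in its flanks, the Hoxc cluster 1 with 17, and shading marks bins beside Hoxb that a RAD overlaps.

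Coding genes in the flanks had a peak at the 5′ end in 21 of 49 cases (42.9%), above the 31.9% of all coding genes. The 49 include 5 genes beside Hoxb that overlap a RAD and had no such peak. The 41.0% of coding genes outside RADs is therefore not a like background. Beside Hoxd all 3 genes had a peak at the 5′ end, namely Lnp, Evx2 (a homeobox gene coregulated with the posterior Hoxd genes) and Mtx2. Evx2 is the first gene beyond Hoxd13, at 8.45 kb, and 2 peaks lay at 6.55 and 10.1 kb from the cluster. Its paralogue Evx1, 52.6 kb beyond Hoxa13, had no call, with a peak 7.02 kb from its 5′ end. Skap2, the first gene on the group 1 side of Hoxa (143 kb), had a peak at the 5′ end, as did Hibadh.

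Around Hoxb the genes with a call were Abi3, Atp5g1, Gngt2, Igf2bp1, Phospho1, Snf8 and Zfp652, all 7 on the Hoxb13 side. Ttll6 and Skap1, the first genes on the sides of Hoxb13 and Hoxb1, had none, although 2 peaks lay inside Skap1. The RAD beside Hoxb overlapped the 3′ end of Skap1 but not its 5′ end. Around Hoxc they were Atf7, Atp5g2, Calcoco1 and Tarbp2 beyond Hoxc13, and Cbx5, Copz1, Hnrnpa1, Itga5 and Nckap1l beyond Hoxc4, while the immediate neighbours Gm17649 and Smug1 had none. Thus 9 of 23 coding genes around Hoxc (39.1%) had a peak at the 5′ end, against 1 of 9 (11.1%) inside.

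Genes of proteins that work with or on Hox genes were mostly in 1 of the 2 kinds of interval, which holds for 54.3% of all coding genes. Separately, 31.9% of all coding genes had a peak at the 5′ end and 22.6% overlapped a RAD. The lists were short and chosen with earlier results of these data known, so no list was tested against these shares. Of 9 TALE homeobox genes, whose proteins bind DNA together with HOX proteins, 5 had a peak at the 5′ end, among them Pbx3, Meis1, Meis2 and Pknox2, and Pbx2, Pbx4, Meis3 and Pknox1 overlapped a RAD. Of 29 Polycomb genes, 11 had a peak at the 5′ end, among them Ezh1, Eed and Suz12 of the methylating complex PRC2 and Bmi1, Pcgf5, Pcgf6, Rybp and Yaf2 of PRC1. The others of the 11 were Rbbp7, Mtf2 and Phf19. A RAD overlapped 15 of the 29, including Ezh2, Jarid2, Rbbp4, Phf1, Ring1, Pcgf1, Pcgf2, Phc1, Phc2, Kdm2b and Cbx2, Cbx6, Cbx7 and Cbx8, and Rnf2, Pcgf3 and Phc3 had neither.

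Of 11 genes of MLL complexes and related activators, which keep Hox genes active, Mll1, Psip1, Wdr5, Ash2l, Rbbp5 and Kdm6a had a peak at the 5′ end. A RAD overlapped Mll1, Mll2, Men1, Kdm6b and Dot1l, and Dpy30 had a peak over the gene only. Mll1 was the only gene of these lists with both. Among the ParaHox and Evx genes, the nearest relatives of the Hox genes, 0 of 8 overlapped a RAD, beside 22.6% of all coding genes. Gsx1, Pdx1 and Cdx2 lie close together on chromosome 5, and Evx1 and Evx2 lie beside Hox clusters. The 8 genes are thus not independent cases, and the count of 0 carries little weight. Of these 8, Cdx2, Gsx1, Gsx2 and Evx2 had a peak at the 5′ end, beside 31.9% of all coding genes, and Cdx1, Cdx4, Pdx1 and Evx1 did not.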

How the data were processed

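RIF1 was precipitated with an anti-HA antibody from 2 Rif1FH samples, with 2 Rif1WT samples as control, and the DNA was sequenced. The labels name anti-CD43 MicroBeads as the antibody, while the protocol, followed here, uses these for cell isolation. Per the study's methods, reads were trimmed with Trim Galore 0.6.4 and uniquely aligned with Bowtie 1.0.0 to mm9. MACS2 2.2.6 was used to call both narrow and broad peaks, and EDD to call RADs. These calls were merged, and those of both Rif1FH replicates combined, with bedtools 2.27.1 (versions from the submitters' processing notes). Unique alignment leaves repeated sequence without peaks. Calling thresholds and the use of Rif1WT in calling were not given in the sources used here.

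The deposited list holds 3 columns of positions (chromosome, start, end), with no signal or score, and its kinds of interval were not named. Intervals were split at 50 kb by width. Coordinates count from 1 on mm9, and an overlap of 1 bp sufficed. Sequence was read from NCBIM37. Overlap counting was tested on simulated intervals. Computation used Python 3.11.15 and numpy 2.4.6, and figures were drawn with matplotlib 3.10.9. The genes named were all Hox genes with an overlapping interval, the extremes of distance per cluster, flanking genes and listed regulators with an interval. Some genes and sequences under this rule are not reported here. The members and lists were chosen with earlier results of these data known, so that no list was tested.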

Additional observations from a re-analysis of the deposited data

How the results depend on the processing

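Of 23 alternatives for the 5 counts and densities over all clusters, 19 stayed. Staying meant within 1.5 times the main count or, for flank density, within its 95% Poisson interval. That interval treats peaks as independent and is wide at small counts, so it is a loose limit. Among single clusters, the Hoxa flank density of 13.5 per Mb with 1 Mb flanks, in place of 8 per Mb, thus counted as staying. A window of 5 kb gave 16 genes with a peak at the 5′ end in place of 9. This share of 41.0% lies above the 34.9% of all coding genes, whereas at 1 kb the Hox share lies below. Neighbouring Hox genes can share a peak at 5 kb, as Hoxd8 and Hoxd9 did. The share of coding genes outside RADs, 41.0% at 1 kb, was not taken at 5 kb. With intervals at or above the median width (1365 bp) only, 7 Hox genes had a peak over the gene in place of 12, 10 peaks lay in the clusters in place of 17, of which 0 in Hoxc and 0 in Hoxd, and the flanks held 6.50 per Mb in place of 11.5 (Hoxc 9 against Hoxb 10.0). By construction this drops the narrower peaks. Windows of 0.1, 0.5 and 2 kb gave 6, 8 and 10 genes at 5′ ends (backgrounds 28.7, 31.1 and 32.7%), and intervals with their midpoint in the window gave 7, without Hoxa6 and Hoxb4. No Hox gene overlapped a RAD under the alternatives tried. They could not change this, because the nearest RAD lay 350 kb from a cluster. For the same reason, counting RADs together with peaks could not add a gene. These fixed alternatives are among the 19 that stayed. Of 92 alternatives for single clusters, which include the same fixed ones, 14 moved. No paired analysis was possible because positions were pooled over both replicates, and for the same reason no replicate could be left out. Depth is unknown, so weak occupancy at genes without a peak cannot be told apart from its absence.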
